A study of Mus musculus with 8 samples.

Results

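The BCL2 family sets the threshold at which a cell releases cytochrome c from its mitochondria and dies by apoptosis. Its anti-apoptotic members hold the effectors BAX and BAK1 in check, and the BH3-only members bind the anti-apoptotic members, and some of them the effectors, to tip the balance. In lung adenocarcinoma cells the family is best known for BCL-XL and MCL1 as survival factors and for BIM and PUMA as mediators of death after targeted drugs. Transcripts of 10 members were followed: Bcl2, Bcl2l1 (BCL-XL) and Mcl1 as anti-apoptotic members, Bax and Bak1 as effectors, and Bcl2l11 (BIM), Bid, Bad, Bbc3 (PUMA) and Pmaip1 (NOXA) as BH3-only members. They were taken by symbol from a raw count table of 52459 gene symbols. All 10 were among the 14085 genes that passed the filter on low counts.

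The RNA came from tumour nodules in the lung of a genetically engineered mouse model on a mixed background, in 4 groups of 2 libraries. The groups were vehicle, JQ1, anti-PD-1 antibody, and JQ1 with anti-PD-1, called the combination here. JQ1 is a small molecule that keeps BET bromodomain proteins off acetylated histones. PD-1 is a checkpoint receptor that restrains T cells, and the antibody blocks it. No source used here states the alleles, the driver of tumour formation, doses, treatment times or ages. All groups, vehicle included, share the tumour model. The nodules are bulk tissue, so fewer cells of a type and less RNA per cell cannot be told apart.

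The family is defined by a short helix, the BH3 domain, through which its members bind each other. The coding windows that hold its core are shown because they are what the 3 roles have in common. Each window is 27 bases of the coding strand (GENCODE M21 models on GRCm38) and was found once in the coding sequence of each gene shown. Capitals mark the leucine codon that opens the core and, after 3 further codons, a codon for a small residue followed by the aspartate codon.
Bcl2: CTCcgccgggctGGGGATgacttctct
Bcl2l1: CTGagagaggcaGGCGATgagtttgaa
Mcl1: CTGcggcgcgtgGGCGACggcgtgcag
Bax: CTCcggcgaattGGAGATgaactggac
Bak1: CTTgctctcatcGGAGATgatattaac
Bcl2l11: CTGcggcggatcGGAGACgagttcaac
Bid: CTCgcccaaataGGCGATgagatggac
Bad: CTCcgaaggatgAGCGATgagtttgag
Bbc3: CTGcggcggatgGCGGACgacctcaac
The small residue is glycine in 7 of these 9 windows, serine in Bad and alanine in Bbc3. The anti-apoptotic windows lie at chr1:106712575-106712601 in exon 1 of Bcl2, chr2:152829697-152829723 in exon 2 of Bcl2l1 and chr3:95659436-95659462 in exon 1 of Mcl1. Those of the effectors lie at chr7:45465997-45466023 in exon 3 of Bax and chr17:27022531-27022557 in exon 4 of Bak1. The BH3-only windows lie at chr2:128147150-128147176 in exon 3 of Bcl2l11, chr6:120897289-120897315 in exon 4 of Bid, chr19:6950792-6950818 in exon 3 of Bad and chr7:16313773-16313799 in exon 3 of Bbc3. Mcl1, Bcl2l11, Bad and Bbc3 lie on the plus strand and the other 5 on the minus strand.

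Levels are given as CPM, counts relative to the TMM-scaled library total, and a gene was said to rise or fall where edgeR's quasi-likelihood test gave a Benjamini-Hochberg adjusted p under 0.05 over all 14085 genes. The shallowest library, combination replicate 1, had 2719816 counts and the deepest, vehicle replicate 2, had 15224108. The share of ribosomal RNA was 21.8% to 23.7% in vehicle, 23.5% to 24.2% in anti-PD-1, 27.7% to 35.0% in JQ1 and 46.0% to 52.5% in the combination, so this share moved with JQ1. Trp53 was at 1.99 to 4.63 CPM, from 11 to 48 counts a library, which checks no allele. Of the lung epithelial markers, Sftpc was at 454 to 3250 CPM in all libraries and Nkx2-1 at 402 to 1200 CPM with JQ1 against 1560 to 2120 CPM without, while Epcam was at 29.6 to 51.9 CPM with JQ1 against 15.4 to 25.3 CPM without. Hexim1, a gene whose rise is often used as a readout of BET inhibition, did not rise here. It was at 9.23 to 29.8 CPM with JQ1 and 29.4 to 47.4 CPM without. The log2 fold change over both backgrounds was -1.02 (SE 0.32, edgeR adjusted p = 0.0722). Hexim1 is thus no check that JQ1 acted.

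Bcl2l1 and Mcl1 made up most of the family's captured signal. How well each gene was captured was not measured, so levels of different genes are compared as captured reads, not as transcript abundance. Per kilobase of coding sequence, since the libraries were made by capture of coding regions, the mean level over the 8 libraries was 134 ± 35.9 CPM (SD) for Bcl2l1 and 81.9 ± 15.2 CPM for Mcl1. Bad followed at 19.3 ± 3.77 CPM per coding kilobase and Bcl2l11 at 17.4 ± 13.5. Between 67.9% (JQ1 replicate 1) and 80.4% (combination replicate 1) of the summed level of the 10 members per coding kilobase came from Bcl2l1 and Mcl1. The remaining 6 were lower, with Bbc3 at 8.07 ± 3.82, Pmaip1 at 7.03 ± 9.13, Bcl2 at 6.51 ± 2.67, Bak1 at 6.07 ± 1.90, Bax at 5.74 ± 1.62 and Bid at 1.72 ± 0.775 CPM per coding kilobase. Bcl2l1 exceeded Mcl1, Mcl1 exceeded Bad, and Bax exceeded Bid in 8 of 8 libraries. The neighbours from Bad to Bax were within each other's spread, with the higher one ahead in 3 to 7 of 8 libraries. Per kilobase of exon, in which Mcl1 and Bcl2l1 carry long untranslated ends, the order was different. Mcl1 came first at 23.8 CPM, then Bcl2l1 at 22.3, Bad at 7.02, Bax at 2.24, Bbc3 at 2.20, Bak1 at 1.87, Bcl2l11 at 1.41, Pmaip1 at 0.795, Bcl2 at 0.518 and Bid at 0.283. Bcl2l11, with its long exons, thus moved behind Bax, Bbc3 and Bak1, and Bcl2 was below Bak1 in 8 of 8 libraries.

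**Figure D1:**
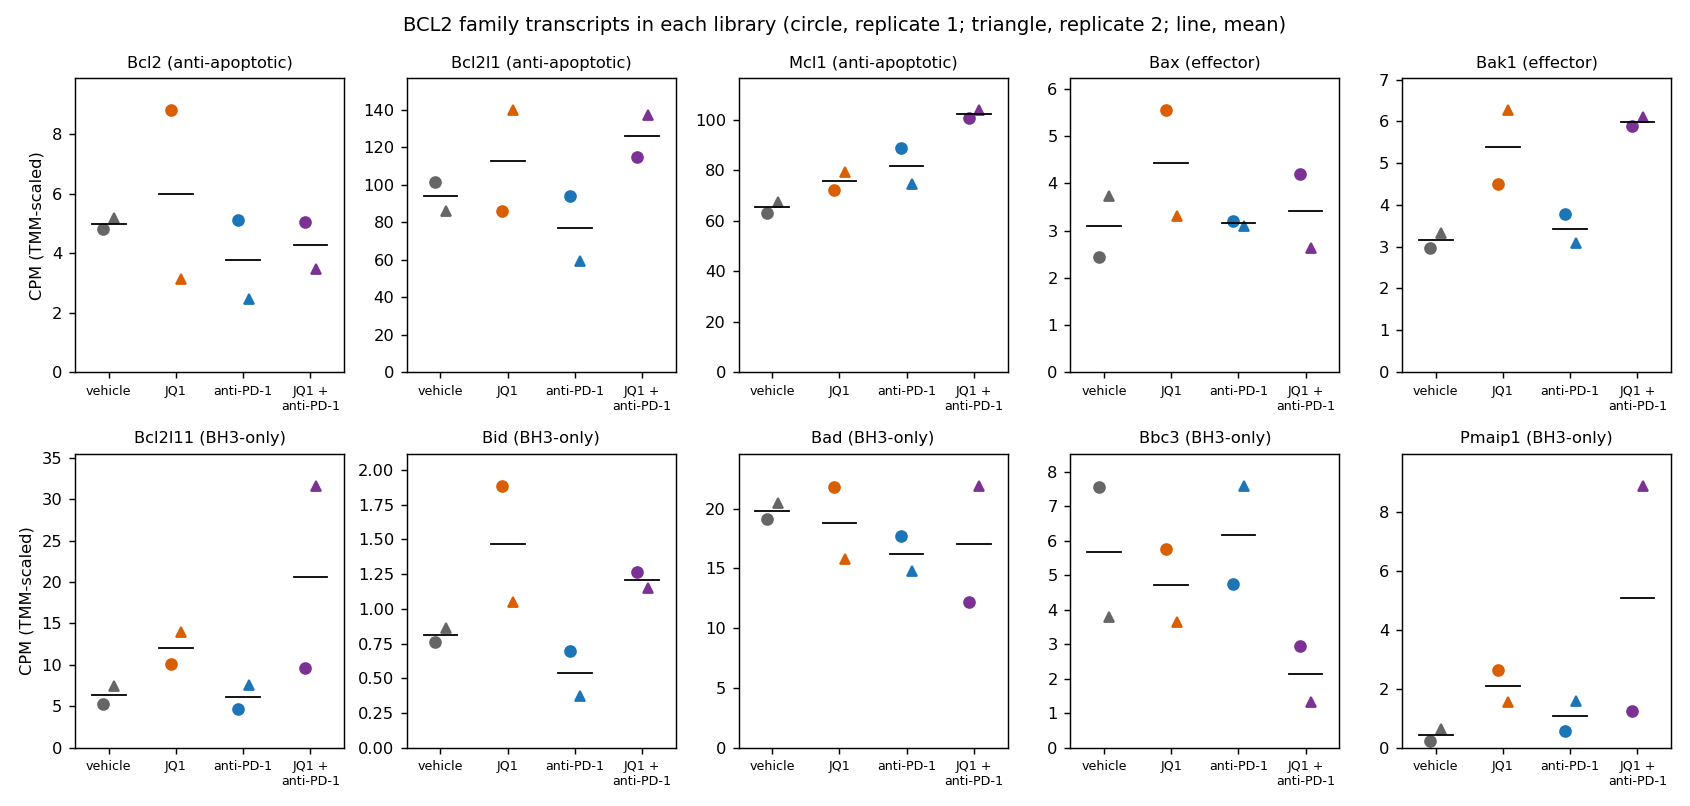
Level of each of the 10 members in each library, in TMM-scaled CPM on linear axes from 0; circles are replicate 1, triangles replicate 2 and lines the mean of the 2 libraries. Bcl2l11, Bak1 and Bid are higher in all 4 libraries with JQ1 than in all 4 without, and combination replicate 2 is the highest library for Bcl2l11 and Pmaip1.

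Bcl2l11 was the 1 member of 10 that passed the test in any of the 8 comparisons made: it rose with JQ1 when the JQ1 effect was averaged over the vehicle and the anti-PD-1 backgrounds. Over all tested genes, 8.28% passed in that comparison, 4.22% upward and 4.05% downward, so 1 of 10 members is close to the background. Without adjustment 4 members were under 0.05, against 31.7% of all genes. Bcl2l11 encodes BIM, a BH3-only protein that binds all the anti-apoptotic members and can engage BAX directly. Its level was 5.27 and 7.40 CPM in vehicle, 4.68 and 7.61 CPM in anti-PD-1, 10.1 and 13.9 CPM in JQ1, and 9.68 and 31.6 CPM in the combination. All 4 libraries with JQ1 were above all 4 without it, and combination replicate 2 stood far above the rest. The average JQ1 effect was a log2 fold change of 1.36 (SE 0.37, 95% interval 0.54 to 2.18, 4 libraries against 4), or 2.56-fold, at an edgeR adjusted p of 0.0499.

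The call for Bcl2l11 rested on little margin. Of the 8 fits that each left out a library, the adjusted p stayed under 0.05 only without combination replicate 1, the shallowest library, at a log2 fold change of 1.64 (edgeR adjusted p = 0.0156). Without combination replicate 2 the value was 0.77 (adjusted p = 0.16), and without vehicle replicate 1 or 2 it was 1.23 (adjusted p = 0.178) and 1.47 (adjusted p = 0.138). Without JQ1 replicate 1 or 2 it was 1.45 (adjusted p = 0.0711) and 1.22 (adjusted p = 0.105), and without anti-PD-1 replicate 1 or 2 it was 1.19 (adjusted p = 0.135) and 1.54 (adjusted p = 0.0978). With the ribosomal RNA share of each library as a term in the edgeR model, the value was 0.30 (adjusted p = 0.959). That share differed by group, so such a term overlaps with treatment and cannot separate the share from the JQ1 effect. The value was above 0 in all 21 alternatives tried, from 0.30 to 1.64, and the adjusted p was under 0.05 in 7 of them.

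**Figure D2:**
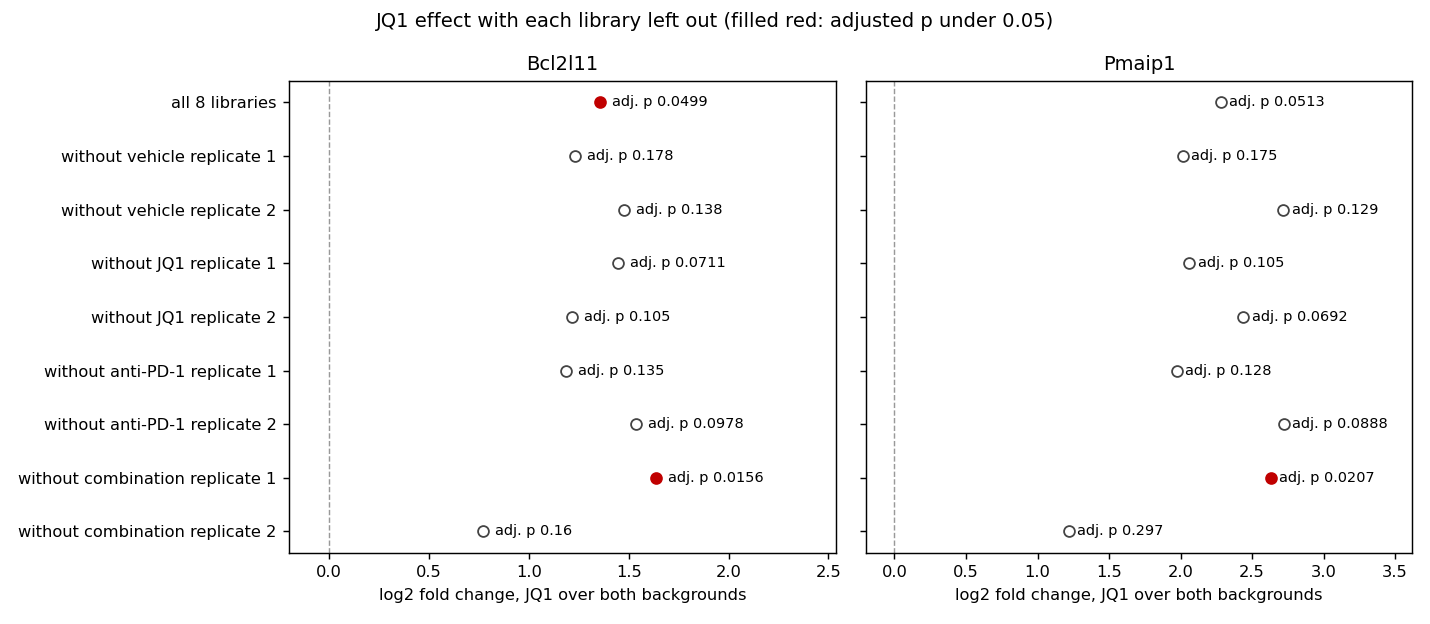
Log2 fold change for JQ1 over both backgrounds of Bcl2l11 and Pmaip1, with all 8 libraries and with each library left out in turn; filled red points have an edgeR adjusted p under 0.05, and each p is printed beside its point. Both genes pass without combination replicate 1 and both have their smallest value without combination replicate 2.

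Bcl2l11 is transcribed from chromosome 2 (128126038 to 128162547, plus strand, GRCm38), and forkhead transcription factors of the FOXO class are known to drive it. The 250 bases before its start (RefSeq, GRCm38.p6, chr2:128125788-128126037, plus strand) are shown because they hold a GTAAACA match, in capitals, the core letters of a FOXO site.
Bcl2l11: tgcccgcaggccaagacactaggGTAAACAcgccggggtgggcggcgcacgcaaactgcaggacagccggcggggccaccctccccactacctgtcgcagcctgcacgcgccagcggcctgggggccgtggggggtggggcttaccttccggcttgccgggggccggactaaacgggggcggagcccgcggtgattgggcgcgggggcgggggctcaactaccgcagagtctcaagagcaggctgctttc
GTAAACA was searched on both strands in windows of 300 bases, 250 before and 50 after each start, and 3.65% of 32851 windows held it. Promoter windows of 9 members were read, 15 windows in all, and 2 of the 15 held GTAAACA: this one of Bcl2l11 and 1 of Bbc3. Some members have more than 1 window, and 2 windows of Bbc3 overlap, so the 15 are not separate promoters. The GC box GGGCGG was in 10 of the 15 windows against 35.7% of all windows. The E-box CACGTG was in 2 of the 15, of Bax and Bbc3, against 7.15% of all windows, and the cyclic AMP element TGACGTCA was in 0 of the 15 against 1.79%. These letters are a description and not evidence of binding. Transcripts of the FOXO genes themselves did not pass the test: for JQ1 over both backgrounds the log2 fold change was 0.26 for Foxo1, -0.34 for Foxo3 and 0.31 for Foxo4, at edgeR adjusted p of 0.462, 0.391 and 0.497. The nearest upstream gene on the same strand, Acoxl, ends 2164 bases before Bcl2l11. Its counts were 192 and 146 in vehicle, 72 and 54 in JQ1, 57 and 14 in anti-PD-1, and 1 and 3 in the combination. Acoxl was highest in vehicle and lowest in the combination, where it fell against vehicle (log2 fold change -4.58, SE 0.77, edgeR adjusted p = 0.0217). That call was lost without vehicle replicate 1 (adjusted p = 0.108) or 2 (adjusted p = 0.0796) and without combination replicate 2 (adjusted p = 0.119).

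Pmaip1, which encodes NOXA, a BH3-only protein that binds MCL1, had the largest log2 fold change of the members but low counts. The counts were 3 and 11 in vehicle, 25 and 18 in JQ1, 8 and 17 in anti-PD-1, and 3 and 54 in the combination. In CPM these were 0.229 and 0.631 in vehicle, 2.62 and 1.57 in JQ1, 0.559 and 1.60 in anti-PD-1, and 1.26 and 8.90 in the combination. Both JQ1 libraries and both combination libraries lay above vehicle, while anti-PD-1 replicate 2 overlapped the libraries with JQ1. For JQ1 over both backgrounds the log2 fold change was 2.28 (SE 0.63, 95% interval 0.89 to 3.67) at an edgeR adjusted p of 0.0513, just above the threshold. As for Bcl2l11, it passed without combination replicate 1 (2.63, adjusted p = 0.0207). Without combination replicate 2 the edgeR value was 1.22 (adjusted p = 0.297). With a term for the ribosomal RNA share the sign turned, at -1.34.

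Bbc3, which encodes PUMA, a p53-induced BH3-only protein, had the opposite order. Its level was 7.56 and 3.79 CPM in vehicle, 5.77 and 3.66 CPM in JQ1, 4.75 and 7.61 CPM in anti-PD-1, and 2.95 and 1.32 CPM in the combination. Both combination libraries, with only 7 and 8 counts, were below all 6 others, and vehicle and JQ1 overlapped. The log2 fold change was -0.96 (95% interval -1.84 to -0.08) for JQ1 over both backgrounds, at an edgeR adjusted p of 0.129, and -1.54 (95% interval -2.87 to -0.20) for the combination against vehicle, at an adjusted p of 0.139. Within a library, where scaling cancels, the count ratio of Bcl2l11 to Bbc3 was 0.697 and 1.95 in vehicle, 1.75 and 3.81 in JQ1, 0.985 and 1 in anti-PD-1, and 3.29 and 24.0 in the combination. Only JQ1 replicate 1 lay within the range of the libraries without JQ1.

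Bid, cleaved by caspase-8 to link death receptors to mitochondria, and Bad, held inactive by phosphorylation and 14-3-3 proteins, did not pass. Bid had 3 to 18 counts a library, at 0.764 and 0.861 CPM in vehicle, 1.89 and 1.05 in JQ1, 0.699 and 0.376 in anti-PD-1, and 1.26 and 1.15 in the combination. The 4 libraries with JQ1 were above the 4 without, with a log2 fold change of 0.98 (edgeR adjusted p = 0.233). Exons of Bid share 628 bases with Bcl2l13 on the other strand, which had 1310 counts against 79 for Bid. Bcl2l13 was also higher in the 4 libraries with JQ1, at 15.2 to 26.4 CPM against 10.6 to 13.6 without. Its log2 fold change was 0.76 (edgeR adjusted p = 0.0695), and its part in the Bid counts was not tested. Bad was at 19.1 and 20.5 CPM in vehicle, 21.8 and 15.8 in JQ1, 17.7 and 14.7 in anti-PD-1, and 12.2 and 21.9 in the combination. The libraries with and without JQ1 overlapped, and the JQ1 effect was 0.01 (95% interval -0.54 to 0.57). Bad shares 524 bases of exon with Gpr137 on the other strand, and as no source used here states that reads were counted by strand, reads of such pairs cannot be told apart.

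Of the effectors, which form the pores of the outer mitochondrial membrane, Bak1 separated the libraries by JQ1 and Bax did not. Bak1 was at 2.98 and 3.33 CPM in vehicle, 3.77 and 3.10 in anti-PD-1, 4.51 and 6.28 in JQ1, and 5.89 and 6.10 in the combination. Its JQ1 effect was a log2 fold change of 0.79 (SE 0.29, 95% interval 0.15 to 1.43), which failed the correction (edgeR adjusted p = 0.0994). The groups with and without JQ1 did not overlap for Bak1, Bcl2l11 and Bid, all higher with JQ1, which is 3 of 10 members; of all tested genes, 10.2% were non-overlapping and higher with JQ1 and 9.35% lower. Bax was at 2.44 and 3.73 CPM in vehicle, 5.56 and 3.31 in JQ1, 3.21 and 3.10 in anti-PD-1, and 4.21 and 2.64 in the combination. For Bax the libraries with and without JQ1 overlapped, and its JQ1 effect was 0.29 (95% interval -0.49 to 1.06, edgeR adjusted p = 0.591). Bak1 shares 437 bases of exon on the other strand with Ggnbp1, which had 206 counts in all.

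Of the anti-apoptotic members, Mcl1, a short-lived protein that the cell must keep making, was highest in the combination. Its level was 63.1 and 67.6 CPM in vehicle, 72.4 and 79.3 in JQ1, 88.9 and 74.5 in anti-PD-1, and 101 and 104 in the combination. The combination libraries were above all 6 others, and vehicle was below all 6 others. The difference of combination and vehicle was 0.65 (SE 0.24, 95% interval 0.11 to 1.19) on the log2 scale and failed the correction (edgeR adjusted p = 0.127). Averaged over the backgrounds, Mcl1 differed by 0.27 with JQ1 (adjusted p = 0.292) and by 0.38 with anti-PD-1 (adjusted p = 0.499).

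Bcl2l1, whose product BCL-XL guards the outer mitochondrial membrane, was at 102 and 86.1 CPM in vehicle, 85.9 and 140 in JQ1, 94.2 and 59.4 in anti-PD-1, and 115 and 137 in the combination. The 2 JQ1 libraries lay far apart, with and without JQ1 overlapped, and the JQ1 effect was 0.49 (95% interval -0.011 to 0.995, edgeR adjusted p = 0.165). Bcl2, the founding member, was at 4.81 and 5.16 CPM in vehicle, 8.81 and 3.14 in JQ1, 5.10 and 2.44 in anti-PD-1, and 5.05 and 3.46 in the combination. Its JQ1 libraries were the farthest apart and enclosed vehicle, and its JQ1 effect was 0.19 (95% interval -0.71 to 1.08). It turned to -0.29 without JQ1 replicate 1. The count ratio of Bax to Bcl2 ran from 0.508 to 0.722 in vehicle, 0.631 to 1.06 in JQ1, 0.630 to 1.27 in anti-PD-1 and 0.762 to 0.833 in the combination. The combination lay above vehicle, while the ranges of JQ1 and anti-PD-1 overlapped both. Its ratios rest on 10 Bax over 12 Bcl2 counts and 16 over 21, too few to read a difference from vehicle.

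**Figure D3:**
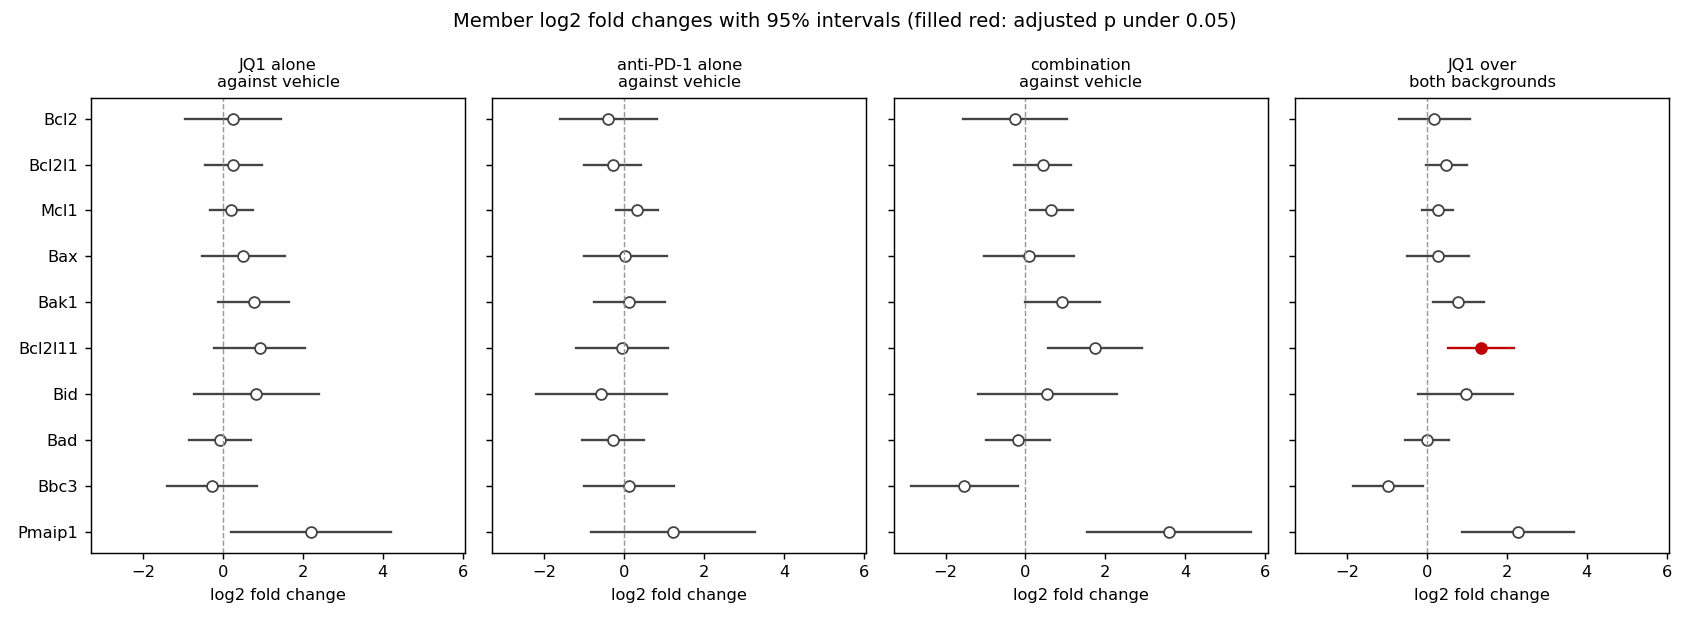
Log2 fold change of each member with its 95% interval from the edgeR fit, in 4 comparisons; filled red marks an adjusted p under 0.05. Bcl2l11 for JQ1 over both backgrounds is the only filled point, and Pmaip1 has the widest departures from 0.

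Against vehicle, the combination gave the largest differences of the family, but 0 of 10 members passed, beside 4.8% of all tested genes. Without adjustment, 4 members were under 0.05 in the edgeR test (27.3% of all genes): Pmaip1 (3.59, adjusted p = 0.0528), Bcl2l11 (1.74, adjusted p = 0.0767), Mcl1 and Bbc3. DESeq2 called 2 members there, Bcl2l11 and Pmaip1, and limma voom and limma trend called 0. The combination and vehicle did not overlap for 7 members, against 58.5% of all genes, of which Bak1, Bcl2l1, Bcl2l11, Bid, Mcl1 and Pmaip1 were higher and Bbc3 lower; over all tested genes these shares were 29.5% and 29.1%. The median log2 fold change of the 10 was 0.49, against 0.07 over all genes. Without combination replicate 1, the edgeR values of Bcl2l11 (2.31, adjusted p = 0.0198) and Pmaip1 (4.29, adjusted p = 0.0194) passed.

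JQ1 alone against vehicle gave 0 of 10 calls, as it did for all tested genes (0%). In the edgeR test 1 member, Pmaip1, was under an unadjusted 0.05 (10.1% of all genes), at a log2 fold change of 2.21 (adjusted p = 0.465), and DESeq2, limma voom and limma trend called 0 members. Bcl2l11 was at 0.92, Bid at 0.83 and Bak1 at 0.77. Both JQ1 libraries were above both vehicle libraries for these 4 members and Mcl1, 5 of 10, where 26.3% of all genes did so.

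Anti-PD-1 alone against vehicle also gave 0 of 10 calls (0% of all genes), with 0 members under an unadjusted 0.05 in the edgeR test (1.97% of all genes), and DESeq2, limma voom and limma trend called 0. Its values ran from -0.57 for Bid to 1.23 for Pmaip1, and the half-widths of the unadjusted 95% intervals ran from 0.53 to 2.05. A change would have had to exceed its half-width, and by more after adjustment, to be detected here. Mcl1 was higher, and Bad and Bid lower, in both anti-PD-1 libraries than in both vehicle libraries, where 14.4% of all genes were higher and 16% lower in that way. Anti-PD-1 over both backgrounds gave 0 of 10 calls, beside 0.0142% of all genes. There 0 members were under an unadjusted 0.05 in the edgeR test (10.1% of all genes), DESeq2, limma voom and limma trend called 0, and the libraries with and without the antibody overlapped for all 10 members (2.61% of all genes did not overlap).

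Added to JQ1, anti-PD-1 gave 0 of 10 calls (0.0213% of all genes), with 0 members under an unadjusted 0.05 in the edgeR test (14.1% of all genes), and 0 calls by DESeq2, limma voom and limma trend. Mcl1 was higher and Bbc3 lower in both combination libraries than in both JQ1 libraries, as were 19.7% and 21.3% of all genes. Added to anti-PD-1, JQ1 gave 0 of 10 calls where 4.23% of all genes passed, with 4 members under an unadjusted 0.05 (27% of all genes). Bcl2l11 was closest, at 1.79 (edgeR adjusted p = 0.0762), and DESeq2 called 1 member while limma voom and limma trend called 0. Bak1, Bcl2l1, Bcl2l11, Bid and Mcl1 were higher and Bbc3 lower in both combination libraries than in both anti-PD-1 libraries, as were 27.9% and 26.8% of all genes. Comparisons that share the vehicle, JQ1 or anti-PD-1 libraries are not independent of each other. Whether the JQ1 effect differed between the backgrounds was tested as an interaction, which gave 0 of 10 calls (0% of all genes), 0 members under an unadjusted 0.05 (6.25% of all genes), and 0 calls by DESeq2, limma voom and limma trend. Its values ran from -1.39 for Bbc3 to 0.87 for Bcl2l11, with a smallest edgeR adjusted p of 0.812 and half-widths of 0.76 to 3.11.

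Genes that act around the family were read from 6 lists, for JQ1 over both backgrounds and for the combination against vehicle. The counts below stand beside the shares of all tested genes given above: for JQ1, 8.28% passed and 31.7% were under an unadjusted 0.05, and for the combination, 4.8% and 27.3%. Of 11 tested genes in the list of other BCL2 relatives (15 listed), 1 rose and 0 fell: Bcl2l2, which encodes the anti-apoptotic BCL-W, from 7.54 ± 0.0311 CPM in vehicle and 6.71 ± 1.78 in anti-PD-1 to 11.1 ± 1.45 in JQ1 and 16.3 ± 1.36 in the combination (SD, n = 2). Its log2 fold change was 0.91 (SE 0.25, edgeR adjusted p = 0.0488). All 11 tested relatives had values above 0, as did 52.9% of all genes, with a median of 0.66 against 0.06 over all genes. For anti-PD-1 alone 2 of the 11 were above 0, against 49.9% of all genes. In the combination against vehicle 0 of the 11 passed and 5 were under an unadjusted 0.05 in the edgeR test. Bik, a BH3-only gene with summed counts of 18 (vehicle) and 45 (combination), was at 2.83 (adjusted p = 0.0818) there.

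Of 23 tested genes among caspases, their inhibitors and death receptors (24 listed), 2 rose and 1 fell with JQ1, at a median of 0.67. Cflar, an inhibitor of caspase-8 activation, rose by 0.91 on the log2 scale (SE 0.21, edgeR adjusted p = 0.0325), from 21.6 ± 3.22 CPM in vehicle and 22.2 ± 4.62 in anti-PD-1 to 33.8 ± 4.81 in JQ1 and 50.2 ± 5.49 in the combination. It was also the 1 gene of 23 that rose in the combination against vehicle (1.22, SE 0.30, edgeR adjusted p = 0.0462), and 0 fell. Aifm1, a mitochondrial flavoprotein that can act in caspase-independent death, fell by 0.77 (SE 0.20, adjusted p = 0.0449).

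Of 14 genes for mitochondrial channels and partners, 1 fell with JQ1 and 0 rose, at a median of -0.09: Vdac3, a channel of the outer membrane (-0.76, SE 0.20, edgeR adjusted p = 0.0432). In the combination against vehicle 0 passed and 4 were under an unadjusted 0.05, with Vdac3 at -1.08 (adjusted p = 0.053) and Tspo at 2.11 (adjusted p = 0.0684). Of 11 tested genes of MCL1 supply and turnover (12 listed), 1 fell and 0 rose, at a median of -0.45: Huwe1, a ubiquitin ligase that acts on MCL1, from 1883 ± 137 CPM in vehicle and 1801 ± 24.2 in anti-PD-1 to 1230 ± 233 in JQ1 and 903 ± 236 in the combination. Its log2 fold change was -0.81 (SE 0.19, adjusted p = 0.0365), and it turned to 0.20 with a term for the ribosomal RNA share. In the combination against vehicle 0 of these 11 passed and 6 were under an unadjusted 0.05 in the edgeR test, with Huwe1 at -1.06 (adjusted p = 0.0525) and Ccnt1 at 1.001 (adjusted p = 0.0597).

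Of 20 tested regulators and partners of the BH3-only proteins (21 listed), 1 rose and 3 fell with JQ1, and 0 rose and 3 fell in the combination against vehicle, at medians of -0.16 and -0.12. Dynll1, the dynein light chain that binds BIM, was at 461 ± 11.2 CPM in vehicle, 358 ± 83.9 in anti-PD-1, 228 ± 46.6 in JQ1 and 137 ± 19.3 in the combination. Dynll1 fell by 1.20 on the log2 scale with JQ1 (SE 0.20, edgeR adjusted p = 0.0155) and by 1.76 in the combination (SE 0.28, adjusted p = 0.0178). Mycn, a transcription factor, fell by 2.76 with JQ1 (SE 0.49, adjusted p = 0.0228) and by 4.57 in the combination (SE 0.78, adjusted p = 0.0276), where its counts were 12 and 4. Both Mycn values turned positive with a term for the ribosomal RNA share. Pcbp1, an RNA-binding protein, fell by 0.67 with JQ1 (adjusted p = 0.0397) and by 1.19 in the combination (adjusted p = 0.0321). Ywhab, a 14-3-3 protein, the class that holds phosphorylated BAD, rose by 0.76 with JQ1 (adjusted p = 0.0374).

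Of 14 tested p53 targets (16 listed), 2 rose and 1 fell with JQ1, and 2 rose and 0 fell in the combination against vehicle, at medians of 0.61 and 0.81. Mdm2, the ubiquitin ligase of p53, rose by 0.94 with JQ1 (SE 0.23, edgeR adjusted p = 0.0374). Trp53inp1, a stress-induced nuclear protein, rose by 1.36 with JQ1 (SE 0.32, adjusted p = 0.0374) and by 2.69 in the combination (SE 0.48, adjusted p = 0.0261), where its libraries were at 51.4 and 129.5 CPM. Perp, a membrane protein, rose by 2.21 in the combination (SE 0.43, adjusted p = 0.0303). Ei24 fell by 0.74 with JQ1 (adjusted p = 0.0428). Bbc3 and Pmaip1, p53 targets that are members here, had JQ1 values of opposite sign, as given above. The summed level of the list was 233 CPM in combination replicate 1 and 502 in replicate 2, and 206 to 270 in the other 6 libraries.

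**Figure D4:**
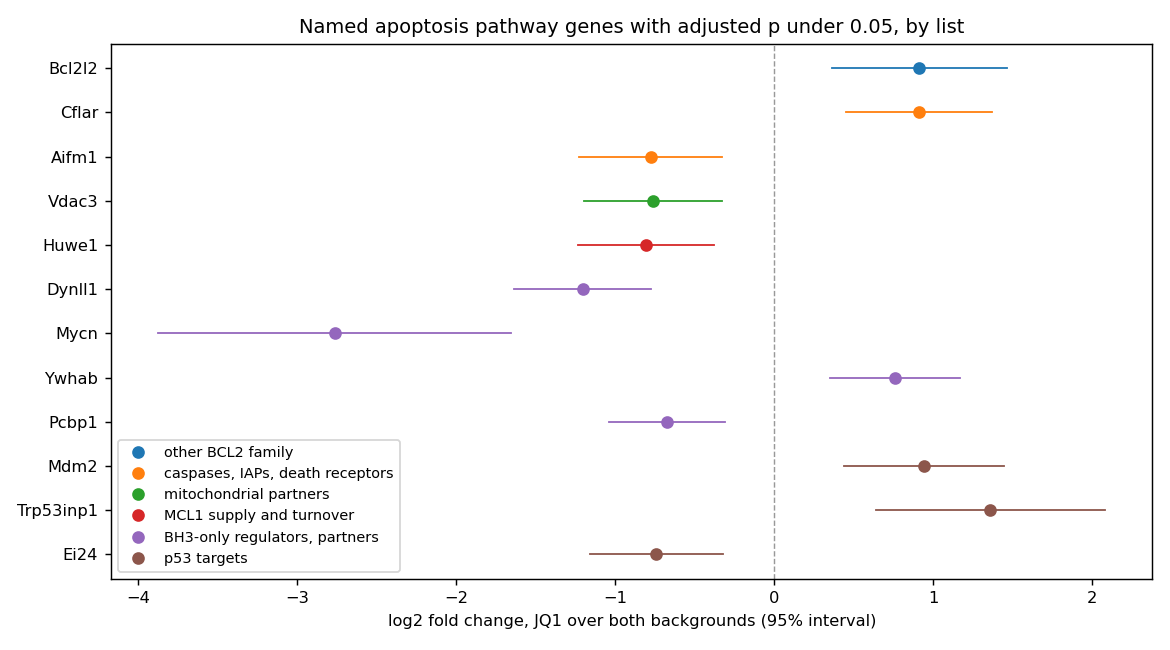
Log2 fold change with its 95% interval for JQ1 over both backgrounds, for the 12 list genes named here that passed (edgeR adjusted p under 0.05); colours give the list. Of these, Trp53inp1 has the largest rise and Mycn the largest fall.

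The pathway calls were as sensitive to single libraries as that of Bcl2l11. Counting Bcl2l11 and the genes of the 6 lists, 14 had passed for JQ1 over both backgrounds: 0 of them stayed under 0.05 without vehicle replicate 1 or 2, 1 without anti-PD-1 replicate 1 or 2, 4 without JQ1 replicate 1, 3 without JQ1 replicate 2, 12 without combination replicate 1 and 4 without combination replicate 2. Of 7 in the combination against vehicle, Acoxl included, 0 remained without either vehicle library or combination replicate 2. With a term for the ribosomal RNA share, which overlaps with treatment, 0 of the 14 and 0 of the 7 remained. Calls over all tested genes moved as well. Over the alternatives they ran from 3 to 2527 for JQ1 over both backgrounds and from 2 to 1992 for the combination against vehicle. Lost calls are therefore not particular to these genes.

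Some markers of other cell types differed with JQ1 as well. The summed level of 8 endothelial markers was 174 to 252 CPM with JQ1 and 90.4 to 154 CPM without, with all 8 detected in every library, and 3 of the 8 rose. That of 8 fibroblast markers, mostly Col1a1, was 449 to 786 CPM with JQ1 and 991 to 1650 without. Of the 7 tested, Col1a1 fell (log2 fold change -1.45, edgeR adjusted p = 0.0107) and Pdgfra rose (1.18, adjusted p = 0.0458). Without adjustment, 3 of the 7 were higher and 4 lower at p under 0.05. That of 8 striated muscle markers, mostly Myh6, was 74.7 to 363 CPM against 366 to 626. Myh6 itself was at 64.8 to 326 CPM with JQ1 and 307 to 524 without, and Myl2 had 0 counts. Of the 5 tested, 2 fell. T cell markers summed to 0.842 to 1.99 CPM with JQ1 and 2.21 to 5.31 without, but only 1 of the 10, Lck, passed the filter on low counts. Lck had 117 counts in all and did not pass the test (-1.65, edgeR adjusted p = 0.0601). No change of T cells can be read from so few counts. Neutrophil markers summed to 3.63 to 13 CPM with JQ1 against 2.41 to 3.10 without, and of 5 tested (8 listed) 1 rose. That gene, S100a8, had 64 counts in all, from 0 to 21 a library. The high sums were those of replicate 1 of JQ1 (13 CPM) and of the combination (12.6 CPM). Replicate 2 of each was at 4.97 and 3.63 CPM. These counts are also too few to read a change of neutrophils. Macrophage markers overlapped, at 223 to 510 CPM with JQ1 and 311 to 466 without, and so did the sum of 13 lung epithelial markers, at 5750 to 10300 CPM against 6630 to 9750. Within that sum, 4 of the 13 rose, Epcam (0.98, edgeR adjusted p = 0.0431), Cdh1 (0.84, adjusted p = 0.0332), Napsa (1.10, adjusted p = 0.0302) and Scgb1a1 (2.92, adjusted p = 0.0285), and Nkx2-1 fell (-1.08, adjusted p = 0.0304). The part of these cell types in the values of Bcl2l11, Pmaip1 and Bak1 was not tested.

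Over the 8 libraries, Bcl2l11 and Pmaip1 had the highest correlation of the 45 member pairs (Pearson r = 0.92 of log2(CPM + 0.5)) and Bcl2l11 and Bbc3 the lowest (-0.80), with a median of 0.21. The points share their libraries, and the level of Bcl2l11 also followed the ribosomal RNA share of the library (r = 0.79), as did those of Pmaip1 (0.78), Mcl1 (0.79) and Bak1 (0.76), while that of Bbc3 ran against it (-0.78). Among 5117 genes with a mean log2 CPM of at least 4, the genes most like Bcl2l11 were Gse1 (r = 0.98), Fam234a and Cbfa2t2 (both 0.96). Those most like Mcl1 were A530020G20Rik (0.95), Zmym5 (0.95) and Rgs5 (0.94), and those most like Bax were Mcmbp (0.91), Pld1 (0.86) and Lama4 (0.85). These are descriptions of 8 libraries, with no test.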

How the data were processed

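RNA from 8 lung tumour nodule samples was isolated from frozen tissue, treated with DNase and captured with the TruSeq RNA Access kit, per the labels' protocols. The submitters' processing notes name bcl2fastq, STAR, featureCounts, DESeq2, mm10 and GRCm38; no source used here gives versions, the annotation or whether counting was stranded. The deposited raw table holds unnormalized read counts per gene symbol. The deposited normalized table holds a signal, the raw count divided by a DESeq2 size factor per library; multiplied back, 99.99% to 100% of its values were whole within 0.05 reads, and a fit on those reads gave 676 calls for the combination over vehicle and 1166 for the averaged JQ1 effect, as many as the fit on the raw counts.

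Groups came from the labels, with replicates numbered in accession order. Separate animals are not stated, and the p-values cover only the spread among these samples. By Xist and Y-linked counts, the 2 libraries of each treated group differ in sex, so they came from different animals. Both vehicle libraries are male, and whether they came from different animals is not known, so their spread may be technical. Sex is thus not balanced between vehicle and the treated groups. No library was a copy of another (smallest chi-square per degree of freedom 19.4 within and 17.3 between groups).

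Counts were tested with edgeR 4.0.16 (TMM, filterByExpr, robust quasi-likelihood F test) in R 4.3.3, in 1 fit of 8 libraries with a mean per group (4 residual degrees of freedom, biological coefficient of variation 0.332), 8 contrasts, Benjamini-Hochberg over 14085 genes and a prior count of 0.125. The SE is the log2 fold change over the square root of F. Intervals are 95%. Of the 52459 symbols, 26033 had no count. The ribosomal RNA share sums 358 genes. Positions and coding lengths are from GENCODE M21 on GRCm38, 1-based, and all 10 members matched. The test was checked on simulated counts for the combination against vehicle only, drawn with the same dispersion for all genes. That check does not cover the averaged JQ1 effect or a library that stands apart from its group. Alternatives were RLE and upper-quartile factors, totals only, ribosomal RNA removed, no filter, a stricter filter (mean count of 50), DESeq2 1.42.0, limma 3.58.1 (voom, and trend on log2(normalized value + 1)), only the libraries compared, a sex term, a ribosomal RNA share term, an additive model, each library left out, and, chosen after seeing the data, the recovered reads. With a library left out, the lone library of its group was assumed to vary like the other groups.

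All members are described. From each pathway list, up to 4 called genes with the smallest p are named, or, with none called, up to 2 as values; Foxo1, Foxo3 and Foxo4 and individual markers of cell types were named after their values were seen. The members and lists were chosen with earlier results of these data known. Some items that the rule names are left out.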

Additional observations from a re-analysis of the deposited data

How the results depend on the processing

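Depth limits the low members: Bid, Pmaip1 and Bbc3 had as few as 3, 3 and 7 counts in a combination library. No paired analysis was possible because the replicate numbers follow accession order and the labels carry none. Member calls below stand beside calls over all tested genes, which also moved over the alternatives. Those ran from 3 to 2527 for JQ1 over both backgrounds and from 2 to 1992 for the combination against vehicle. For the combination against anti-PD-1 they ran from 1 to 1920. The number of members called was 0 under every alternative for both single treatments against vehicle, the combination against JQ1, anti-PD-1 over both backgrounds and the interaction. For the combination against vehicle it went from 0 to 1 with library totals only and to 2 with no filter and with DESeq2, and over the fits leaving out a library it was 0 to 2. For the combination against anti-PD-1 it went from 0 to 1 with totals only, 3 with no filter and 1 with DESeq2, and 0 to 2 with a library left out. For JQ1 over both backgrounds it went from 1 to 0 with RLE factors, totals only, ribosomal RNA removed, limma trend, a sex term and the ribosomal RNA share term. It went to 2 with upper-quartile factors, no filter, DESeq2 and limma voom, and was 0 to 2 with a library left out. The cause was not tested.

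Of 1636 member values, 121 changed sign, 45 of them by over 1 SE. Library totals only put the median of all genes at -0.46 in the combination against vehicle, -0.56 against JQ1, -0.44 against anti-PD-1, -0.17 for JQ1 and -0.30 for anti-PD-1 over both backgrounds, and -0.53 for the interaction, against -0.01 to 0.07 with TMM. With totals only the sign turned for Bad (JQ1 over both backgrounds -0.24, combination against anti-PD-1 -0.43, interaction -0.38), Bak1 (anti-PD-1 over both backgrounds -0.16, combination against JQ1 -0.42), Bax (combination against vehicle -0.43), Bcl2l1 (combination against JQ1 -0.41, against vehicle -0.085, interaction -0.10) and Mcl1 (combination against JQ1 -0.11, against anti-PD-1 -0.15, interaction -0.40).

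The ribosomal RNA share differed by group, so a term for it overlaps with treatment and cannot separate the share from the treatment effects. With this term, values for JQ1 over both backgrounds turned for Bad (-1.43), Bcl2 (-1.29), Bid (-0.057), Pmaip1 (-1.34), Huwe1 (0.20) and Mycn (0.88). Those for the combination against vehicle turned for Bid (-1.04), Bik (-3.72), Huwe1 (0.51), Mycn (1.15), Pmaip1 (-2.14) and Tspo (-3.90). Those for the combination against anti-PD-1 turned for Bad (-2.06), Bcl2 (-2.01), Bid (-0.41) and Pmaip1 (-3.07). Others that turned were Bcl2 for JQ1 alone (-0.57), Bcl2l1, Bcl2l11 and Pmaip1 for anti-PD-1 over both backgrounds (0.29, -0.27 and -0.80), Bcl2l11 and Pmaip1 in the combination against JQ1 (-0.40 and -2.53), and Bad, Bcl2l11 and Pmaip1 in the interaction (-1.25, -0.27 and -3.47). The cause was not tested.

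Leaving out a library turned the sign of these: without JQ1 replicate 1, Bcl2 for JQ1 alone (range over the 8 fits -0.68 to 0.81), JQ1 over both backgrounds (-0.29 to 0.49), the combination against JQ1 (-1.10 to 0.38) and the interaction (-0.71 to 0.77); without JQ1 replicate 2, Bcl2l1 for JQ1 alone (-0.14 to 0.57); and without vehicle replicate 1, Bbc3 for JQ1 alone (-0.69 to 0.30). Without combination replicate 1, Trp53 turned in the combination against vehicle (-0.16 to 0.93). Without combination replicate 2, Bad turned for JQ1 over both backgrounds (-0.26 to 0.17), the combination against anti-PD-1 (-0.44 to 0.43) and the interaction (-0.36 to 0.51). Bcl2l11 turned there for anti-PD-1 over both backgrounds (-0.19 to 0.67), the combination against JQ1 (-0.33 to 1.40) and the interaction (-0.29 to 1.45), and Pmaip1 for the combination against JQ1 (-0.75 to 2.09) and the interaction (-1.999 to 1.045).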

Other observations

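Summed over the roles, the effectors Bax and Bak1 together were at 8.73 to 10.1 CPM in the 4 libraries with JQ1 and 5.42 to 7.06 CPM in the 4 without. These ranges did not overlap, but Bak1 alone separated the libraries too and Bax alone did not. Of all tested genes, taken singly, 10.2% were non-overlapping and higher with JQ1. The 3 anti-apoptotic members together were at 167 to 245 CPM with JQ1 and 136 to 188 CPM without, and the 5 BH3-only members at 27.4 to 64.9 CPM and 28.4 to 33.2 CPM, with overlap in both. The count ratio of Bak1 to Mcl1 was 0.0623 and 0.0791 in JQ1 and 0.0586 in both combination libraries, against 0.0472 and 0.0492 in vehicle and 0.0424 and 0.0416 in anti-PD-1. These sums and ratios are values with no test.

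Other relatives were hardly detected: Bcl2l10, an anti-apoptotic gene of the germ line, had 0 counts in all 8 libraries, and Hrk, a BH3-only gene of neurons, had 1 count in total. The near-identical Bcl2a1a, Bcl2a1b and Bcl2a1d had 37, 68 and 47 counts in total, and how reads were shared among these copies is uncertain. Bmf, a BH3-only gene, was at 11.7 to 33.8 CPM with JQ1 and 12.7 to 15.4 CPM without, and its log2 fold change for JQ1 over both backgrounds was 0.66 (SE 0.25, edgeR adjusted p = 0.11).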
